A study of Homo sapiens with 11 samples.

Results

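The sites described here are intronic ZFP36L2 peaks that passed the threshold over input in both THP1 replicates and in neither MOLM13 replicate. A site is a THP1 replicate 1 peak whose deposited annotation is a distal intron, which shares at least 1 base on the same strand with a peak of THP1 replicate 2 and with no peak of either MOLM13 replicate. Of the 19325 peaks of THP1 replicate 1, 12560 were annotated as distal intron, 10515 of these were shared with THP1 replicate 2, and 2508 met the whole rule. Another 6686 were also shared with both MOLM13 replicates, and 1321 with 1 MOLM13 replicate. The mirror rule, applied to MOLM13 replicate 1, found 468 MOLM13-only sites. How far from an exon an intronic peak must lie to count as distal was not stated.

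ZFP36L2 occupancy was measured by enhanced crosslinking and immunoprecipitation (eCLIP) in 2 established human acute myeloid leukaemia lines, THP1 and MOLM13. In eCLIP, ultraviolet light links proteins to the RNA they touch, the protein is immunoprecipitated and the RNA fragments are sequenced. In each line 20000000 cells were irradiated at 254 nm with 400 mJ/cm2. Anti-ZFP36L2 antibody or control IgG was used for the pull-down, and complexes of 30 to 105 kDa were cut out. THP1 had 2 immunoprecipitates, 2 IgG libraries and 1 input library, and MOLM13 had 2 of each, the input being 2% of the lysate. Neither line carried a change of ZFP36L2 in these labels, and no label ties the duplicates to separate cultures, which leaves their spread possibly technical. Whether the single THP1 input served both THP1 replicates was not stated.

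ZFP36L2 belongs to the TIS11 family of tandem zinc finger proteins, which bind the sequence UAUUUAU and related AU-rich elements, mostly in 3' UTRs, and recruit deadenylases so that the mRNA decays. Introns are found mainly in unspliced nuclear RNA, so an intronic crosslink requires both transcription of the gene and contact with its precursor RNA. THP1 and MOLM13 are both of the monocytic lineage and both carry a fusion of KMT2A to MLLT3.

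The sites were selected on measured values, which are given as description and tested nowhere: the log2 fold over input of THP1 replicate 1 and of replicate 2, and the absence of a peak in the MOLM13 input tables. A peak enters those tables when its log2 fold and its −log10 p are both 3 or more. Folds over IgG use the same immunoprecipitates as the folds over input, so they are a second denominator and not a second experiment. The peak tables hold no values below the threshold, and the MOLM13 values printed below come from the lists of all clusters over IgG, where every cluster is kept. A cluster is the authors' unit of piled-up reads, and a site had a MOLM13 cluster where one shared at least 1 base with it on the same strand.

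Only 1 site lies in a stretch for which sequence was given, and it is shown because it holds the family's core element. It lies in an intron of RNF217, a RING-type ubiquitin ligase gene, at chr6:124983092-124983219 on the plus strand of hg38. These are the 30 bases chr6:124983118-124983147, from RefSeq's promoter table for GRCh38.p14, and capitals mark overlapping copies of TATTTAT.

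RNF217: gtcTATTTATTTATTTATtgtcttcagaag

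The 102 bases of the site inside that window held 3 overlapping TATTTAT and 4 ATTTA on the transcribed strand, the shorter motif being part of the longer, and 75 of them (73.5%) were A or T. On the opposite strand the same stretch held 0 of TATTTAT (read as ATAAATA) and 1 of ATTTA (read as TAAAT). Across the same stretch of 35116 promoter windows, 1.1% held TATTTAT and 9.24% held ATTTA, while 1.21% held ATAAATA and 9.53% held TAAAT. These windows lie at promoters and were not matched to the site in A and T content, so the shares are no background for introns. A match describes the letters and not a measured contact. The RNF217 site had log2 folds of 4.05 and 3.96 over input and of 2.81 and 2.96 over IgG in the THP1 replicates, and no MOLM13 cluster lay on it. The replicates were alike over each denominator, and the folds over IgG were a little under the threshold of 3. Both folds use the same immunoprecipitates, so the values over IgG add no independent support for the site.

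The 2508 sites were mostly modest peaks. Their log2 fold over input had a median of 4.21 in THP1 replicate 1 (range 3.01 to 9.79) and 4.13 in replicate 2 (range 3.0 to 10.02). Sites shared by all 4 immunoprecipitates had medians of 5.48 and 5.52 in the same THP1 libraries, and the MOLM13-only sites had 4.11 and 3.93 in their own MOLM13 libraries. The THP1-only sites were therefore like the MOLM13-only sites in fold and lower than the shared ones, in lists that the rule itself sets. Their median length was 71 bases (range 3 to 182), against 59 bases for the shared sites. Touching peaks made 2098 separate regions, 1752 of them of a single site, so the sites are not all independent. Replicate folds over input correlated across sites with a Pearson coefficient of 0.67 and a Spearman coefficient of 0.459 (n = 2508 sites of 1 pair of libraries), and replicate 2 minus replicate 1 had an SD of 0.75.

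Just inside the threshold lay sites in ADCK1, AP3B1, ATG10, CAMKMT and EFTUD2, each at a log2 fold of 3.01 over input in THP1 replicate 1. Replicate 2 put them at 4.63, 3.96, 4.08, 3.96 and 4.24, in that order. Just outside the rule lay sites in MYO9B, PTPRJ, RNF13, SEC24D and SPIDR, which had a MOLM13 replicate 2 peak at 3.0 and THP1 replicate 1 folds of 4.32, 4.07, 4.06, 3.21 and 4.90. Of the 1321 peaks with a counterpart in 1 MOLM13 replicate, 869 had it in replicate 1 and 452 in replicate 2.

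Every site is above input by the rule, so its values over IgG are set only against those of other peaks. The log2 fold over IgG had a median of 2.77 in THP1 replicate 1 (range 0.05 to 6.86) and 3.18 in replicate 2 (range 0.38 to 7.40). With both the log2 fold and the −log10 p at or above 3, 624 sites (24.9%) were enriched over IgG in replicate 1 and 992 (39.6%) in replicate 2. The background was 5.74% and 8.36% of all clusters of these libraries, and 48.3% and 67.5% of all reproducible distal intron peaks. In both replicates 459 of 2508 sites were enriched (18.3%, 95% Wilson interval 16.8 to 19.9), against 42.5% of the reproducible distal intron peaks and 55.6% of the sites shared by all 4 libraries. In neither replicate were 1351 sites (53.9%) enriched. The p-value limited part of this count, since 334 of the 958 sites with a log2 fold of at least 3 in replicate 1, and 505 of the 1497 in replicate 2, missed the threshold on −log10 p. The intervals printed here cover counting error only, and read depth is unknown.

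The gap between the folds over input and over IgG was often a single fixed step. For the same cluster, fold over input minus fold over IgG was 1.24 on the log2 scale at 1001 sites (39.9%) of replicate 1 and 1.00 at 1308 sites (52.2%) of replicate 2. In 99.4% and 99.9% of sites the distance from that step was the log2 of a ratio of whole numbers of at most 12, within 0.002. Among the sites shared by all 4 libraries, 23.0% and 32.9% stood at the step. At least 8-fold above it stood 9 sites in replicate 1 (0.359%) and 4 in replicate 2 (0.16%). Among the sites shared by all 4 libraries 5.52% and 0.943% did.

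At most sites MOLM13 had a cluster, but it seldom passed both thresholds over IgG. A MOLM13 cluster lay on 1776 sites in replicate 1 (70.8%), on 1955 in replicate 2 (78.0%), on 1715 in both (68.4%) and on 2016 in either (80.4%). Of all 153162 clusters of THP1 replicate 1, 43.8%, 51.5% and 57.6% had a MOLM13 cluster in replicate 1, in replicate 2 and in either. The remaining 492 sites (19.6%) had none in either replicate. The mirror was of like size: 73.5% of the MOLM13-only sites had a cluster in THP1 replicate 1 and 70.7% in THP1 replicate 2.

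**Figure D1:**
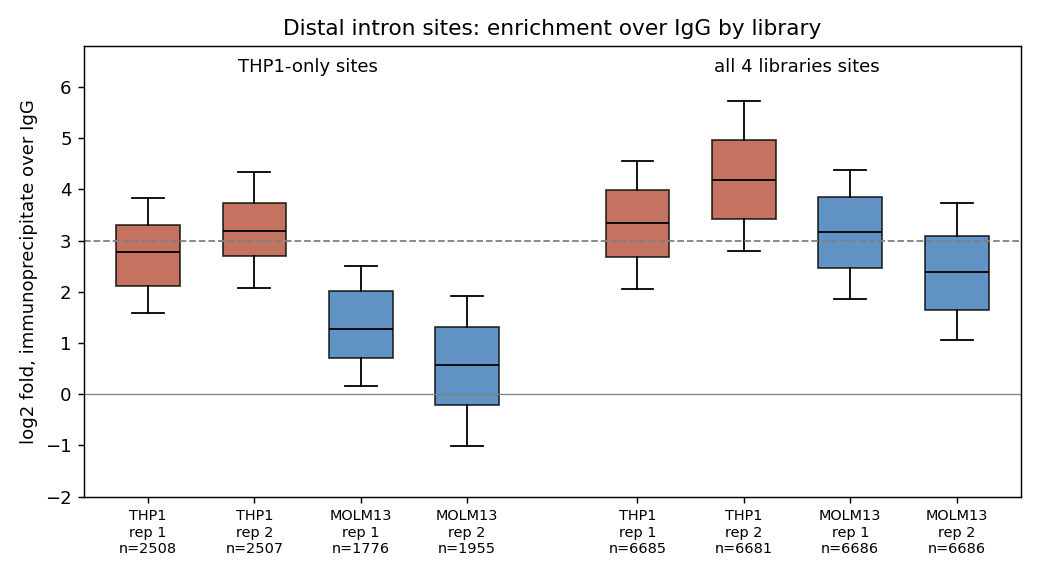
Log2 fold of the immunoprecipitate over IgG at THP1-only sites (left) and at distal intron sites of all 4 libraries (right), by library. Boxes span the quartiles with the median as a line, whiskers the 10th and 90th percentiles, n is the number of sites with a cluster, and the dashed line is the threshold of 3. At the THP1-only sites the medians were 2.77 and 3.18 in THP1 and 1.28 and 0.57 in MOLM13. At the shared sites they were 3.35 and 4.17 in THP1 and 3.16 and 2.38 in MOLM13.

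Where a MOLM13 cluster was present, its median log2 fold over IgG was 1.28 in replicate 1 (range −4.11 to 4.19) and 0.57 in replicate 2 (range −5.44 to 3.63). The highest cluster was taken where several overlapped a site. Medians over all clusters of a library set the baseline: 0.0019 and 0.38 in the THP1 replicates and 0.28 and −0.60 in the MOLM13 replicates. The median at these sites was above that of all clusters in every immunoprecipitate. For THP1 this follows from the choice of peaks high over input in the same immunoprecipitates. For MOLM13 the highest cluster at a site was set beside single clusters. The MOLM13 value lay below 0 at 125 of 1776 sites (7.04%) in replicate 1 and at 625 of 1955 (32.0%) in replicate 2, where 26.7% and 65.4% of all MOLM13 clusters did. With each cluster counted once, 6.97% and 30.2% of the MOLM13 clusters on these sites were below 0.

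MOLM13 clusters past the thresholds over IgG were few: 4 sites in replicate 1 (0.159%) and 3 in replicate 2 (0.12%), 7 in either (0.279%), against 5.11% and 2.49% of all MOLM13 clusters. None was past them in both replicates (0 of 2508, Wilson interval up to 0.153%). The rule removes strong MOLM13 sites through the same immunoprecipitates, so the low count is part of the choice. Where the rule left out 1 MOLM13 replicate, the share was 2.9% without replicate 1 and 1.42% without replicate 2. The 7 sites lie in 6 genes, of which CENPK and CHST11 are named here after their values were seen. FNIP1, which encodes a partner of the tumour suppressor folliculin, held the site with the highest MOLM13 value, at chr5:131689692-131689777, where the files also annotate AC008695.1. It had log2 folds over IgG of 2.94 and 4.44 in the THP1 replicates and of 4.19 and 2.17 in the MOLM13 replicates, so the lines overlapped. RBM39, a splicing factor gene, had 3.32 and 3.70 in THP1 and 2.81 and 3.63 in MOLM13. FEN1, the flap endonuclease of DNA replication, had 3.09 and 3.80 in THP1 and 3.48 and 2.89 in MOLM13. These values overlapped between the lines in RBM39 and FEN1 too, although neither site had a MOLM13 peak over input. In CENPK, a kinetochore gene, 2 touching sites shared the MOLM13 values of 1.62 and 3.02, with 3.43 and 4.38 in THP1 at the stronger of them over IgG. CHST11 had 3.02 and 2.94 in THP1 and 3.22 and 0.86 in MOLM13. There 1 MOLM13 replicate was high and the other low.

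The highest MOLM13 values otherwise lay in LNPEP, BORCS5, FBXL4, HOMER3, UBAC2, ADAM10 and ANKRD40. Their higher MOLM13 replicate was between 3.34 and 3.51 on the log2 scale over IgG, and none passed the threshold on −log10 p. ADAM10, a sheddase of membrane proteins, had 1.71 and 2.48 over IgG in THP1 and 3.34 and −0.01 in MOLM13. HOMER3, a scaffold protein, had 4.14 and 4.31 in THP1 and 3.45 and 1.35 in MOLM13. The MOLM13 replicates stood far apart at both sites. Across the 1715 sites with clusters in both, the 2 MOLM13 folds over IgG correlated with a Pearson coefficient of 0.377 and a Spearman coefficient of 0.301, and replicate 2 minus replicate 1 had an SD of 1.13. The THP1 folds over IgG correlated with a Pearson coefficient of 0.39 and a Spearman coefficient of 0.299 (n = 2507, SD of the difference 1.00).

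MOLM13 values over IgG are given here by the strength of the site in THP1. Sites were binned by the lower of their 2 THP1 folds over input. From 3 to 4 there were 1440 sites, of which 84.5% had a MOLM13 cluster in either replicate, with median folds over IgG of 1.40 and 0.72. From 4 to 5 there were 798 sites, of which 77.1% had one, with medians of 1.36 and 0.49. From 5 to 6 there were 173 sites (72.3%, medians 0.87 and −0.01). From 6 to 7 there were 63 sites (54.0%, medians 0.11 and −0.79). At 7 and over there were 34 sites in 19 regions and 15 genes (73.5%, medians −0.30 over 13 sites and −2.72 over 25 sites). The share enriched over IgG in both THP1 replicates was 7.78%, 19.3%, 58.4%, 92.1% and 100% along these bins, which follows in part from the binning, since both folds use the same THP1 immunoprecipitates. The MOLM13 medians were lower in each stronger bin. The share of clusters below IgG ran 5.58%, 5.96%, 12.6%, 39.1% and 69.2% in MOLM13 replicate 1, and 27.6%, 31.8%, 51.2%, 77.4% and 92.0% in replicate 2. The top bin rests on few genes and touching sites.

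**Figure D2:**
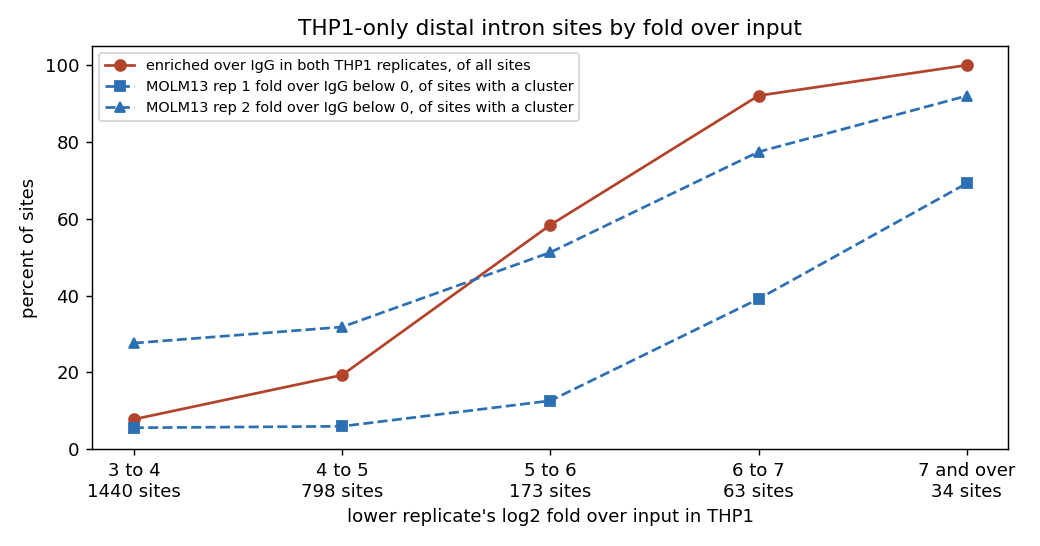
Percent of THP1-only sites (vertical axis) by the lower THP1 replicate's log2 fold over input (horizontal axis, with the number of sites). The solid line is the share enriched over IgG in both THP1 replicates, which runs from 7.78% to 100% and shares its immunoprecipitates with the bins. The dashed lines are the share of sites with a MOLM13 cluster whose fold over IgG was below 0, which ends at 69.2% in replicate 1 and 92.0% in replicate 2.

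The site with the highest lower-replicate fold over input lay in NLGN1, the gene of neuroligin 1, a postsynaptic adhesion protein, at chr3:173734420-173734438 on the plus strand. Its log2 fold over input was 9.56 and 10.02 in the THP1 replicates. Its log2 fold over IgG was 4.85 and 6.21 in THP1, against −4.41 in MOLM13 replicate 2, with no cluster in MOLM13 replicate 1. THP1 reads thus stood above IgG while the MOLM13 immunoprecipitate stood below its own IgG. Another 2 of the 10 strongest sites touched this one and had like values.

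PPFIA2 encodes liprin-alpha-2, a scaffold of synaptic release sites, and its strongest site lay at chr12:81386246-81386293 on the minus strand. It had 8.54 and 8.97 over input, with 6.3 and 5.97 over IgG in THP1, and no cluster in MOLM13. Across the whole gene MOLM13 had 0 clusters in both replicates, against 137 and 122 in THP1, so binding could not be compared there. PPFIA2 held 9 regions, of which 4 had a site enriched over IgG in both THP1 replicates.

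KCND2 encodes the voltage-gated potassium channel Kv4.2 and held 8 regions. At chr7:120435104-120435150 on the plus strand the log2 fold over input was 8.31 and 8.66 in THP1. Over IgG it was 4.48 and 6.34 in THP1, against −4.18 in MOLM13 replicate 2 and no cluster in MOLM13 replicate 1. Upstream in the same gene, at chr7:120399749-120399791, THP1 had 7.78 and 9.51 over input, with 5.32 and 5.51 over IgG, and MOLM13 had no cluster. The gene as a whole carried 251 and 228 clusters in THP1 and 0 and 2 in MOLM13.

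FAM135B had the highest value over input within THP1 replicate 1, at chr8:138433455-138433538 on the minus strand, with 9.79 and 8.28 in THP1. Over IgG this site had 4.69 and 7.27 in THP1, against −2.56 and −5.14 in MOLM13. Both THP1 replicates were far above IgG and both MOLM13 replicates were below it. The gene held 12 regions and 137 and 124 clusters in THP1. MOLM13 had 2 clusters per replicate there, and 2 of the 12 regions carried one in each replicate, with folds over IgG of −3.42 to −2.56 and −5.14 to −3.82.

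NEDD4L, which encodes a ubiquitin ligase of the epithelial sodium channel, had 8.13 and 8.36 over input, with 5.89 and 5.04 over IgG in THP1 at chr18:58112425-58112467. MOLM13 had −0.16 and −0.79 over IgG at this site, so both replicates were close to IgG. FOXP2, a forkhead transcription factor gene known from speech development, had 7.98 and 8.08 over input at chr7:114439610-114439651. Over IgG it had 3.56 and 5.49 in THP1 and −0.84 and −1.97 in MOLM13. ADGRA3, an adhesion G protein-coupled receptor gene, had 7.98 and 8.87 over input, with 3.49 and 4.87 over IgG in THP1 at chr4:22498171-22498278, with no MOLM13 cluster. At these 3 sites all THP1 values over IgG were above 3, and MOLM13 had either no cluster or values below 0. Elsewhere in these genes THP1 folds over IgG went down to 1.1 and 1.7 in the replicates in NEDD4L. In FOXP2 they went down to 1.77 and 2.02, and in ADGRA3 to 2.63 and 2.21.

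Ranked by the lower THP1 fold over IgG, MACF1, NEGR1 and HNF4G joined these genes. MACF1, which encodes a crosslinker of actin and microtubules, had 3 touching or nearly touching sites, and the highest over input, at chr1:39394313-39394316, had 7.86 and 8.40. Over IgG that site had 5.62 and 7.40 in THP1, against −1.60 in MOLM13 replicate 2 and no cluster in MOLM13 replicate 1. NEGR1, an adhesion protein gene of the IgLON family, had 6.68 and 8.19 over input, with 5.43 and 6.19 over IgG in THP1 at chr1:71583045-71583145, and no MOLM13 cluster. HNF4G, a nuclear receptor gene, had 7.11 and 7.35 over input, with 5.86 and 5.35 over IgG in THP1 at chr8:75425091-75425109, with 1.02 and −0.51 in MOLM13. MACF1 differs from the genes above in that MOLM13 had 66 and 88 clusters in it, against 98 and 98 in THP1.

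**Figure D3:**
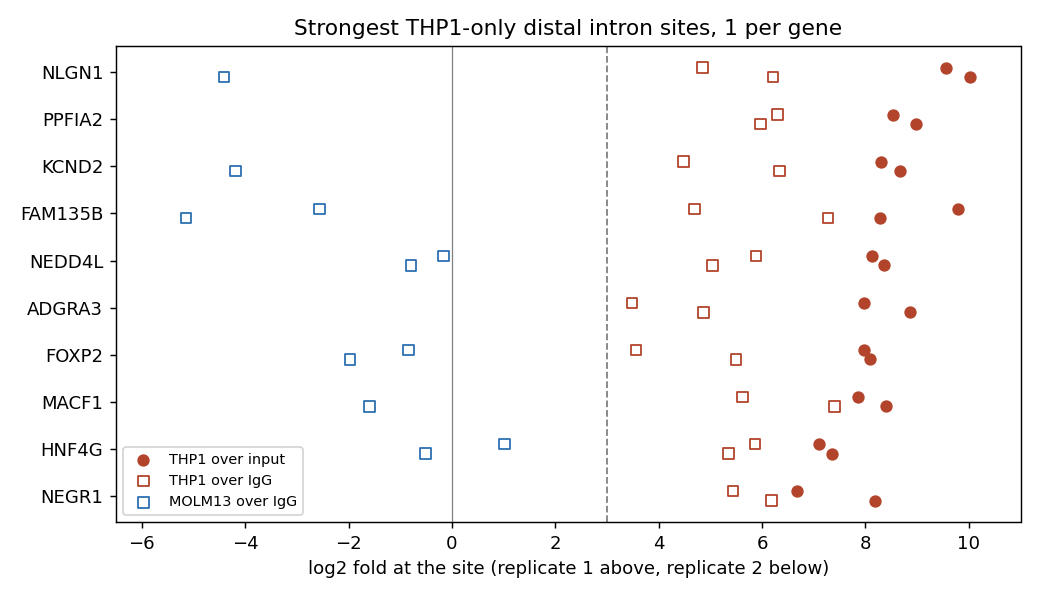
Log2 fold (horizontal axis) at 1 THP1-only site in each of 10 genes, the highest over input among the 10 top sites over input and the 10 top sites over IgG, with replicate 1 drawn above replicate 2. Filled circles are THP1 over input, open red squares THP1 over IgG and open blue squares MOLM13 over IgG, drawn only where MOLM13 had a cluster. The dashed line marks the threshold of 3. All THP1 values lie right of it, and of the MOLM13 values only 1.02 at HNF4G lies above 0.

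MOLM13 values far below IgG lay in few places. Below −4 in either MOLM13 replicate there were 16 sites in 6 regions and 6 genes. Several of these sites shared a cluster, so clusters were also counted once each, a count added after the values were seen. In replicate 2 the sites lay on 6 of the 1792 MOLM13 clusters found on THP1-only sites (0.335%), against 0.0274% of all clusters of that library. In replicate 1 it was 1 cluster of 1592 (0.0628%), against 0.00855%. Among the MOLM13-only sites no THP1 cluster was below −4. Besides NLGN1, KCND2, FAM135B and SDK1 these were NAV3 and ZNF254, named after their values were seen. NAV3, a microtubule-binding protein gene, had 5 touching sites, and at chr12:78140895-78140930 THP1 had 7.31 and 9.23 over input. Over IgG that site had 3.66 and 7.0 in THP1, against −4.11 and −5.44 in MOLM13. ZNF254, a zinc finger protein gene, had 6.23 and 6.73 over input, with 4.72 and 5.72 over IgG in THP1 at chr19:24088634-24088720, with −3.04 and −4.71 in MOLM13. At both of these sites each MOLM13 replicate was below its IgG and each THP1 replicate above. A fold below IgG means that the MOLM13 IgG library held more signal at the site than the antibody library. Why the MOLM13 IgG was high there was not tested.

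The 2508 sites carried 1308 gene names, 1297 of which matched RefSeq, 32 as an older symbol. A single region was found in 924 genes (70.6%) and 5 or more in 49 (3.75%). The 10 genes with most regions held 118 of 2101 regions counted per gene name (5.62%). A region under several gene names counts under each, so this total exceeds the number of separate regions. They were SDK1 and SMYD3 with 14 each, FOXP2 and PDE4D with 13 each, FAM135B with 12, CAMK1D, CLIP2 and NEGR1 with 11 each, LPP with 10 and PPFIA2 with 9. WDFY3 also had 9 and is named here for the tie with PPFIA2, which was listed by name order. All of the 10 but CLIP2 span at least 367.7 kb in RefSeq, and CLIP2 spans 116.5 kb, while WDFY3 spans 297094 bases.

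The 10 genes fell into those with almost no MOLM13 clusters and those with many. SDK1, the gene of the immunoglobulin-family adhesion protein sidekick 1, had 152 and 126 clusters in THP1, against 0 and 1 in MOLM13. FOXP2 had 104 and 78 in THP1 and 1 and 1 in MOLM13, and NEGR1 had 102 and 88 in THP1 and 1 and 2 in MOLM13. CAMK1D, a calcium- and calmodulin-dependent kinase gene, had 85 and 85 in THP1 and 3 and 10 in MOLM13. In these genes, as in PPFIA2 and FAM135B, nearly all clusters on the gene's strand were THP1 clusters. The single MOLM13 cluster of SDK1 lay on a THP1-only site at chr7:3398686-3398713, where THP1 had 7.17 and 7.28 over input, with 4.25 and 6.27 over IgG and MOLM13 replicate 2 had −4.10. The 2 MOLM13 clusters of FOXP2, 1 per replicate, lay on its strongest site.

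SMYD3, a lysine methyltransferase gene, was the other kind. It had 335 and 322 clusters in THP1 and 180 and 275 in MOLM13, and all 14 of its regions carried a MOLM13 cluster in replicate 2. Its THP1 folds were low, with medians over sites of 3.88 and 3.84 over input and 2.41 and 3.26 over IgG, against MOLM13 medians over IgG of 1.87 and 0.10. None of its regions had a site enriched over IgG in both THP1 replicates. PDE4D, a cyclic AMP phosphodiesterase gene, lay between, with 476 and 460 clusters in THP1 and 32 and 50 in MOLM13, and 8 of its 13 regions had a site enriched over IgG in both THP1 replicates. LPP, a LIM domain protein gene of focal adhesions, had 201 and 167 in THP1 and 51 and 67 in MOLM13. CLIP2, a linker of membranes to microtubules, had 61 and 62 in THP1 and 25 and 39 in MOLM13.

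**Figure D4:**
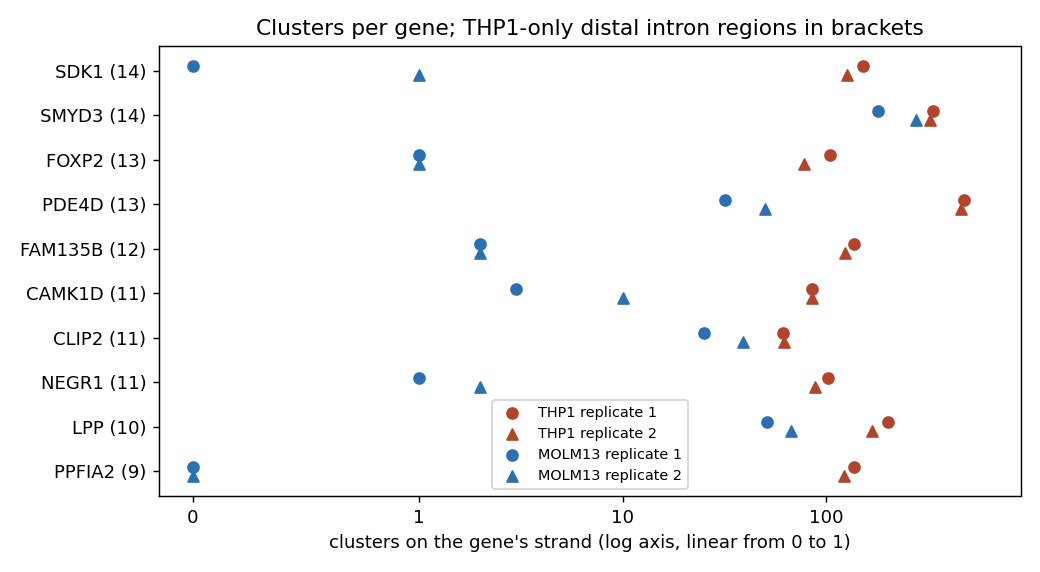
Number of clusters on the gene's strand (horizontal axis, logarithmic above 1 and linear from 0 to 1) in the 10 genes with most THP1-only regions, whose number stands in brackets. Circles are replicate 1 and triangles replicate 2, red for THP1 and blue for MOLM13. SDK1, FOXP2, FAM135B, NEGR1 and PPFIA2 had at most 2 MOLM13 clusters per replicate, while SMYD3 had 180 and 275.

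Over all genes with a THP1-only site, few lacked MOLM13 clusters. Of 1297 matched genes, 64 (4.93%) had no MOLM13 cluster in either replicate, and 166 (12.8%) had at most 0.2 times as many as THP1 in both replicates. Both counts include genes without a THP1 cluster in their RefSeq span either, such as NPW and C1S, named here as examples. Among genes with a site of all 4 libraries the second count was 12 of 2372 (0.506%), and in the mirror for MOLM13-only sites it was 8.25%. The median ratio of MOLM13 to THP1 clusters per gene was 0.70 in replicate 1 and 0.95 in replicate 2, against 0.94 and 1.24 in genes with shared sites. A MOLM13 peak over input was present elsewhere in 783 genes (59.9%) in both replicates and in 441 (33.7%) in neither. The nearest MOLM13 peak over input on the same strand lay within 100 bases of 165 sites (6.58%), within 1000 bases of 489 (19.5%) and within 10000 bases of 961 (38.3%), with a median distance of 22606 bases. Fewer transcripts of a gene and less binding per transcript cannot be told apart from cluster counts.

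The 166 genes with few MOLM13 clusters held 504 sites, and the other 1131 matched genes held 1990. Their THP1 medians were 4.65 and 4.57 over input, against 4.13 and 4.05 in the other genes. Enrichment over IgG in both THP1 replicates was found at 200 of 504 sites (39.7%), against 257 of 1990 (12.9%). A MOLM13 cluster lay on 149 of 504 (29.6%), against 1856 of 1990 (93.3%). The sites in the 166 genes were thus the stronger ones in THP1 and those where MOLM13 mostly had no cluster, and the second of these follows from how the genes were grouped. Of the 192 and 314 MOLM13 clusters in the 166 genes, 68 (35.4%) and 95 (30.3%) lay on a THP1-only site. In THP1 492 of 5413 (9.09%) and 525 of 4899 (10.7%) did so. In the other genes 4.61% and 3.93% of the MOLM13 clusters did. Where MOLM13 had clusters in the 166 genes, the median fold over IgG was 0.28 and −1.01 at the sites, and also 0.28 and −1.01 elsewhere in the same genes. Of those at the sites 4 (5.88%) and 27 (28.4%) were below −2, against 0 and 22 (1.32%) in the other genes.

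Gene length went with the presence of a site. Of 10751 protein-coding genes with clusters in both THP1 replicates, 1289 (12.0%) held a THP1-only site. The share was 4.78% under 50 kb, 16.3% from 50 to 100 kb, 24.6% from 100 to 200 kb, 34.4% from 200 to 400 kb and 32.0% at 400 kb and over. For the shared sites the shares were 11.1%, 33.0%, 41.9%, 45.3% and 32.0%. For MOLM13-only sites they were 1.04%, 3.25%, 6.0%, 8.68% and 9.24%. All kinds of site were more frequent in longer genes than in those under 50 kb, and only in the longest class were THP1-only and shared sites equally frequent. Median gene length was 101438 bases for THP1-only sites, 82430 for shared sites and 109588 for MOLM13-only sites.

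**Figure D5:**
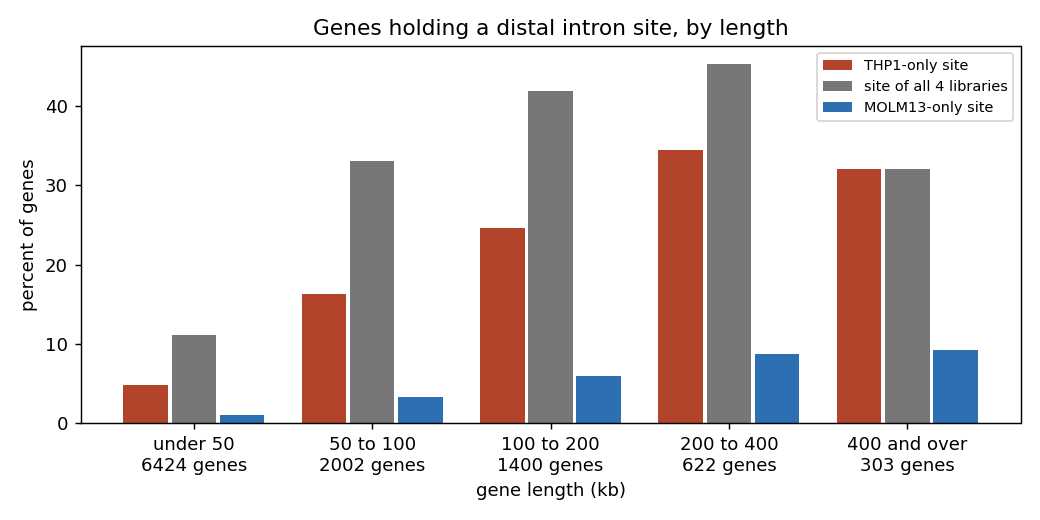
Percent of protein-coding genes with clusters in both THP1 replicates (vertical axis) that hold a THP1-only site, a site of all 4 libraries or a MOLM13-only site, by gene length (horizontal axis, with the number of genes). THP1-only sites were held by 4.78% of genes under 50 kb and by 34.4% of genes from 200 to 400 kb.

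Positions within genes were read for the THP1-only sites alone, so no share of other peaks stands beside them. Of 2494 sites with a matched gene, 2450 (98.2%) lay inside its RefSeq span, and 5 equal parts of the gene, from its start, held 25.4%, 23.3%, 21.5%, 18.8% and 11% of them. The median distance was 44153 bases from the gene start and 68668 bases from the gene end. A 3' UTR peak in both THP1 replicates was present in 285 of the 1308 genes (21.8%), against 20.0% of genes with shared sites and, for MOLM13 peaks, 18.3% of genes with MOLM13-only sites. Chromosome 1 held most sites, 352 (14.0%), followed by chromosome 2 with 188 and chromosome 3 with 179. The spread of all peaks over chromosomes was not counted.

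Gene groups are given by how many of their members with clusters in both THP1 replicates held a THP1-only site, beside 12.0% of all such genes and beside the length shares above, since many members are long. Among cell adhesion and axon guidance genes 4 of 15 did (26.7%): NLGN1, CTNNA3, NCAM1 and UNC5C. MOLM13-only sites were in 3 of the 15 (20.0%). CTNNA3, an alpha-catenin gene, had 4.65 and 4.59 over input, with 3.41 and 2.59 over IgG in THP1, and no MOLM13 cluster. UNC5C, a netrin receptor gene, had 3.90 and 5.11 over input, with 1.66 and 3.10 over IgG at its top site, and no MOLM13 cluster. NCAM1, the neural cell adhesion molecule gene, had 4.54 and 4.13 over input, with 2.29 and 4.13 over IgG in THP1, against 2.70 and 1.86 over IgG in MOLM13. MOLM13 thus had no cluster at the sites of CTNNA3 and UNC5C, and its values overlapped those of THP1 at NCAM1.

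Long genes at common fragile sites, regions prone to breakage under replication stress, had the highest share, with 9 of 16 (56.2%), against 4 of 16 (25%) with a site of all 4 libraries. MOLM13-only sites were in 3 of the 16 (18.8%), against 2.77% of all genes, so their share was raised in this list too. NBEA, which encodes the trafficking protein neurobeachin, had 6.32 and 6.48 over input, with 5.07 and 5.47 over IgG in THP1, against −2.18 in MOLM13 replicate 2 and no cluster in MOLM13 replicate 1. DLG2, a synaptic scaffold gene, had 5.32 and 5.16 over input, with 3.07 and 3.16 over IgG in THP1, and no MOLM13 cluster. THSD7A, a thrombospondin-domain protein gene, had 5.10 and 5.99 over input, with 4.86 and 4.99 over IgG in THP1, against −1.60 in MOLM13 replicate 2 alone. At these 3 sites every THP1 value over IgG was above 3. DPYD, the gene of the enzyme that degrades pyrimidines, had 4.99 and 4.81 over input, with 3.75 and 2.80 over IgG in THP1, against 0.57 and 0.49 in MOLM13. CTNNA3, DIAPH2, EXOC4 and IMMP2L also held a site.

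Among cyclic nucleotide and lipid second messenger genes 7 of 23 held a site (30.4%), and 10 of 23 held a shared one. PDE4B, like PDE4D a cyclic AMP phosphodiesterase gene, had 6.99 and 7.27 over input, with 4.16 and 4.27 over IgG in THP1 at chr1:66004835-66004917. MOLM13 had no cluster at that site and 0 clusters in the whole gene in both replicates, against 83 and 69 in THP1. INPP4B, a phosphoinositide phosphatase gene, had 6.63 and 6.35 over input, with 4.38 and 5.34 over IgG in THP1 at chr4:142618805-142618916. It had 115 and 104 clusters in THP1 and 0 and 1 in MOLM13, the single one lying on another THP1-only site of the gene with a fold over IgG of −3.34. PRKCB, a protein kinase C gene of blood cells, had 5.43 and 6.27 over input, with 3.92 and 4.26 over IgG in THP1, against 1.99 and 1.07 in MOLM13. PRKCB, unlike PDE4B and INPP4B, had 109 and 139 clusters in MOLM13, against 184 and 166 in THP1. The others were ITPR1, PDE7A and PIK3CB.

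Genes of endocytosis, lysosome and membrane traffic held a site in 8 of 29 cases (27.6%), against 12 of 29 (41.4%) with a shared site. SNX9, a sorting nexin gene of clathrin-mediated uptake, had 6.77 and 6.73 over input, with 3.94 and 5.72 over IgG in THP1, against −0.56 and −0.43 in MOLM13, at chr6:157913338-157913379. RAB31, a small GTPase gene of vesicle transport, had 6.10 and 5.12 over input, with 2.54 and 5.12 over IgG in THP1, against 0.51 and −1.01 in MOLM13. The lines did not overlap at either site. RABGAP1L had 2.63 and 3.62 over IgG in THP1 and 2.51 and 1.21 in MOLM13, and DENND1A had 1.29 and 3.51 in THP1 and 1.51 and −0.60 in MOLM13. ATP8B4, EXOC6B, MYO1E and RAB27A also held a site.

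Of mRNA decay and RNA-binding genes 7 of 32 held a THP1-only site (21.9%), against 20 of 32 (62.5%) with a shared one. CELF1, whose protein binds GU-rich elements, had 5.01 and 5.31 over input at its top site. Over IgG that site had 2.18 and 2.72 in THP1, against −0.30 and −0.86 in MOLM13. The other CELF1 site had 3.57 and 3.38 over IgG in THP1, against −0.49 and 2.21 in MOLM13. TNRC6A, which encodes a scaffold of microRNA-guided silencing, had 2.49 and 4.26 over IgG in THP1 and 0.40 and 0.77 in MOLM13. Its paralogue TNRC6B had 1.22 and 3.08 over IgG in THP1 and 0.72 in MOLM13 replicate 2 alone. At TNRC6A and TNRC6B every THP1 value was above those of MOLM13. CNOT1, MBNL1 and PUM2 also held a site.

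The group of the KMT2A-rearranged leukaemia programme and chromatin had 7 of 26 members with a THP1-only site (26.9%), against 16 of 26 (61.5%) with a shared one. ZEB1, a zinc finger transcription factor gene, had 6.15 and 6.46 over input, with 3.91 and 3.87 over IgG in THP1, against −0.08 in MOLM13 replicate 1 and no cluster in MOLM13 replicate 2. KMT2A, the methyltransferase gene of the fusion, had 5.01 and 4.93 over input at chr11:118456020-118456143, where the files also annotate AP001267.5. Over IgG the KMT2A site had 2.77 and 2.93 in THP1, against 1.36 and 0.99 in MOLM13. At its top site HDAC9, a histone deacetylase gene, had 4.38 and 4.70 over input and no MOLM13 cluster. Over IgG the HDAC9 site had 2.14 and 3.70 in THP1. The whole HDAC9 gene carried 185 and 156 clusters in THP1 and 119 and 189 in MOLM13. NSD1, a histone methyltransferase gene, had 2.89 and 1.88 over IgG in THP1 and 1.40 and 0.57 in MOLM13. EZH2, MBNL1 and SATB1 completed the group.

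Genes of myeloid function held sites at or under the share of all genes. Of myeloid transcription factors 3 of 28 had a site (10.7%), namely TCF7L2, BACH1 and FOXO1. TCF7L2, a factor of the Wnt pathway, had 5.46 and 5.42 over input, with 1.63 and 4.42 over IgG in THP1, against −0.43 in MOLM13 replicate 2 alone. Of monocyte and macrophage receptors and adhesion genes 2 of 18 had one (11.1%), ITGAX and CD86. ITGAX, the gene of CD11c, had 4.48 and 5.98 over input, with 2.01 and 3.39 over IgG in THP1, against 1.02 and −2.60 in MOLM13. CD86, a costimulatory ligand gene, had 2.63 and 1.70 over IgG in THP1 and 1.02 and −0.14 in MOLM13. None of 19 cytokine and NF-kB pathway genes held a site, while 2 of them (10.5%) held a shared one. Gene length was not matched here, and of all genes under 50 kb 4.78% held a THP1-only site. Beside 12.0% of all genes, the first and second of these shares are at the background.

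Markers of the lines were read from clusters per gene. Of 12 markers of the monocyte lineage, SPI1 had 25 and 34 clusters in THP1 and 14 and 18 in MOLM13, and LYZ had 7 and 9 in THP1 and 11 and 10 in MOLM13. ITGAM had 8 and 7 in THP1 and 0 and 0 in MOLM13, and CD36 had 3 and 3 in THP1 and 0 and 0 in MOLM13. MPO had 0 and 0 in THP1 and 3 and 2 in MOLM13. CD14 and FCGR1A had no cluster in any of the 4 libraries. The measured T cell and erythroid markers were at 0, as were MS4A1 and CD79A of B cells, and PAX5 had 1 cluster, in THP1 replicate 2.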

How the data were processed

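Clusters and peaks were used as the authors deposited them. Per the submitters' processing notes, the tools included cutadapt 1.14, STAR 2.5.0c, Picard 2.6.0 and edgeR. The notes list the builds hg19, GRCh37 and hg38 with no role, and contig names here are those of hg38. No source used here names the peak caller, the test behind its p or the library depths. Each deposited list holds, per cluster of 1 immunoprecipitate, the authors' log2 fold over IgG and their −log10 p. The input tables give the same log2 fold and −log10 p over input, with gene and region, for peaks with both at or above 3. IgG lists were tied to input tables by identical coordinates, which 19306 of 19325 peaks of THP1 replicate 1 had.

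Overlap meant 1 shared base on the same strand. The THP1 replicate 2 value is that of the overlapping peak with the highest fold over input (1 site has no IgG value), and the MOLM13 value is the highest among overlapping clusters. Clusters were assigned to genes by RefSeq spans of GRCh38.p14, on the strand in the promoter table (15843 genes) or, for 2369, the strand with more clusters, which was the table's strand in 94.1% of genes with both. Python 3.11.15 with pandas 2.3.3, numpy 2.4.6 and scipy 1.17.1 was used, and the overlap code was tested on simulated intervals. Peaks were called per replicate by the authors, no test was made, and folds only describe, rank or filter within a list.

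The members and the 10 gene lists were chosen with earlier results of these data known. Named genes are those of the 10 sites highest in the lower THP1 fold over input, of the 10 highest over IgG, and of the 10 highest in a MOLM13 cluster. To these come the 10 genes with most regions, the 5 sites lowest over input, and up to 4 genes per list by lower fold over input. Some named items and 1 of the lists are not reported here. No genome was used, so motifs were read at 1 site only. Alternative thresholds, overlaps and left-out replicates are given in the closing section.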

Additional observations from a re-analysis of the deposited data

Results flagged for a closer look

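At 62 sites, of the 1715 with clusters in both MOLM13 replicates (3.62%), both THP1 replicates stood above IgG and both MOLM13 replicates below it. The rule itself makes THP1 the high side. Among sites of all 4 libraries 5 of 6686 (0.0748%) did so, and in the mirror 6 of 310 MOLM13-only sites (1.94%) stood above IgG in MOLM13 and below it in THP1. The difference between the lines was not tested. These 62 sites lay in 47 regions and 46 genes, with median log2 folds over IgG of 3.18 and 3.58 in THP1 and −0.56 and −0.94 in MOLM13. At 5 of them both MOLM13 replicates were below −2. Among the named genes, the mean log2 fold over IgG in THP1 minus that in MOLM13 was taken at 1 site each. It was 9.83 at FAM135B, 5.94 at NEDD4L, 5.93 at FOXP2, 5.33 at SNX9, 3.71 at CAMK1D and 3.03 at CELF1. Each difference was untested, with 2 replicates per line. At the other CELF1 site MOLM13 replicate 2 stood at 2.21 over IgG.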

How the results depend on the processing

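Of 56 alternative values, 32 stayed close to the reported ones and 24 moved. For shares, close meant inside the 95% Wilson interval of the reported share. For counts the band was wide. Without MOLM13 replicate 1 there were 3377 sites, against 2508, and this counted as close. So did 1902 genes without THP1 replicate 2, against 1308. The median length of 71 bases was 80 with touching peaks merged and 69 with the coordinates of THP1 replicate 2. With a log2 fold over input of at least 4, the sites numbered 1068 in 616 genes, 32.5% were enriched over IgG in both THP1 replicates, 74.8% had a MOLM13 cluster, and 54.9% lay in genes with a MOLM13 peak elsewhere, against 66.1% as reported. With a −log10 p of at least 5 these values were 1396 sites, 758 genes, 32.9%, 78.4% and 61.4%, and with sharing within 100 bases the last was 63.9%. An IgG threshold of 2 or 4 gave 28.4% or 5.06% enriched in both THP1 replicates, and 0.997% or 0.0399% with an enriched MOLM13 cluster, which was 1.55% when at least 50 percent of the peak had to be shared. Leaving out 1 replicate gave 2960 to 3936 sites, the most without THP1 replicate 2, in 1487 to 1902 genes, with 82.4% to 85.4% having a MOLM13 cluster and 0.381% to 2.9% an enriched one, the highest without MOLM13 replicate 1. By construction fewer libraries make the rule easier to meet; the cause of the other moves was not tested. The motif result could not be run, because no genome was used. No paired analysis was possible because the results come from no test.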
